A study of Mus musculus with 10 samples.

Results

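Protocadherins are cell adhesion proteins of the cadherin superfamily. The genes described here are the 35 whose symbol starts with Pcdh and stands alone on at least 1 probe set, of 22180 genes read by such a probe set. Every member had 1 such probe set except Pcdh15, which had 2 and is described by the brighter over all 10 arrays. The 35 members are 0 genes of the alpha cluster (Pcdha), 22 of the beta cluster (Pcdhb), 1 of the gamma cluster (Pcdhg) and 12 non-clustered genes. The rule for members used the annotation and the overall brightness, not the difference between groups, but it was set with earlier results of these data known.

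RNA came from the cortex of mice 8 weeks of age, from cells that a flow cytometer had sorted for the EGFP reporter of their astrocytes, and was hybridised to Affymetrix arrays. The labels give the genotype wild-type for 5 arrays, named Control, and FMR1_KO for the other 5, named FMR1-KO, and give no further allele, strain, sex or treatment. Which promoter drives the EGFP reporter, and whether an array holds RNA of 1 animal or of a pool, are not stated in the sources used here, so a p-value measures only the spread between these arrays. The comparison the study set up was Control against FMR1-KO, where Fmr1 encodes FMRP, the RNA-binding protein whose loss causes fragile X syndrome.

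The alpha and gamma clusters are built in an unusual way. Each gene of these clusters has its own first exon, which encodes the extracellular part, the membrane span and a short stretch of cytoplasm, and this exon is spliced to a few constant exons that every gene of the cluster shares. Beta genes have no constant exons and consist of single exons. In neurons each cell switches on its own small combination of cluster promoters with the help of the DNA-binding protein CTCF and the cohesin ring, and matching proteins on touching membranes recognise each other, which lets branches of the same cell avoid one another. Gamma protocadherins are also made by astrocytes, where they act in contacts with neurons. The non-clustered genes lie apart from this arrangement and act in cell sorting, axon growth and synapse formation.

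The arrays as a set bear on every value below. Levels are log2 signals, in which a difference of 1 is a doubling, and the arrays' number limits the precision. The Fmr1 signal was not lower under the FMR1-KO label: FMR1-KO arrays 1 to 5 read 8.32, 8.38, 8.26, 8.15 and 8.01, and Control arrays 1 to 5 read 8.28, 7.6, 8.03, 8.17 and 8.10 (difference 0.19 ± 0.13 SE, limma adjusted p = 0.704). The probed part of Fmr1 is not given in the sources used here, so the groups are called by their labels. Xist read 10.60 and 10.98 on Control arrays 2 and 3 and 4.98 to 5.23 on the other 8 arrays. The Y-linked Uty read 4.82 and 4.77 on Control arrays 2 and 3 and 7.64 to 8.30 on the others. Kdm5d, also Y-linked, read 4.86 and 4.83 on those 2 arrays and 7.05 to 7.76 on the others. These genes read as in female RNA on Control arrays 2 and 3 and as in male RNA on all other arrays. Sex was thus not balanced between the labels. The 20 astrocyte markers all had a higher mean under FMR1-KO (median difference 0.40), and the 19 measured of 20 microglia and macrophage markers all had a lower mean (median difference -0.55), with 0 of either list past the threshold of an adjusted p under 0.05. Averaged per array, the astrocyte markers stood at 10.32 in Control 1 against 9.60 to 9.93 in Control 2 to 5, and at 10.69 and 10.76 in FMR1-KO 1 and 2 against 9.77 to 9.99 in FMR1-KO 3 to 5. The microglia markers stood at 9.75 in Control 1 against 10.52 to 10.73 in Control 2 to 5, and at 9.59 and 9.0 in FMR1-KO 1 and 2 against 10.14 to 10.41 in FMR1-KO 3 to 5. Markers of both cell types were thus read, while the neuron marker mean stayed between 6.05 and 6.27 on every array. In RNA from many cells, fewer cells of a type and less RNA per cell cannot be told apart.

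The platform resolved the 4 groups of protocadherins very unequally. RefSeq lists 14 alpha, 22 beta, 22 gamma and 12 non-clustered genes. Of the 58 clustered genes, 23 (39.7%) had a probe set of their own, and 22 of those were beta genes. All 9 alpha genes in the annotation stood together on a single probe set with 9 symbols, and 9 gamma genes stood on another single probe set with 9 symbols. These 18 genes were lost to the analysis by gene. A further 5 alpha and 12 gamma genes were listed on no probe set in the annotation used here and were not analysed. The 12 non-clustered genes were each represented. A probe set had to reach the 25th percentile of all probe sets in its mean over the 10 arrays, a log2 level of 5.316, to be tested, and 28 of the 35 members did: 15 of 22 beta genes, Pcdhga10 and the 12 non-clustered genes. At the edge of this filter, Pcdhb11 (5.320) and Pcdhb18 (5.44) lay just inside and Pcdhb3 (5.26) and Pcdhb1 (5.23) just outside.

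**Figure D1:**
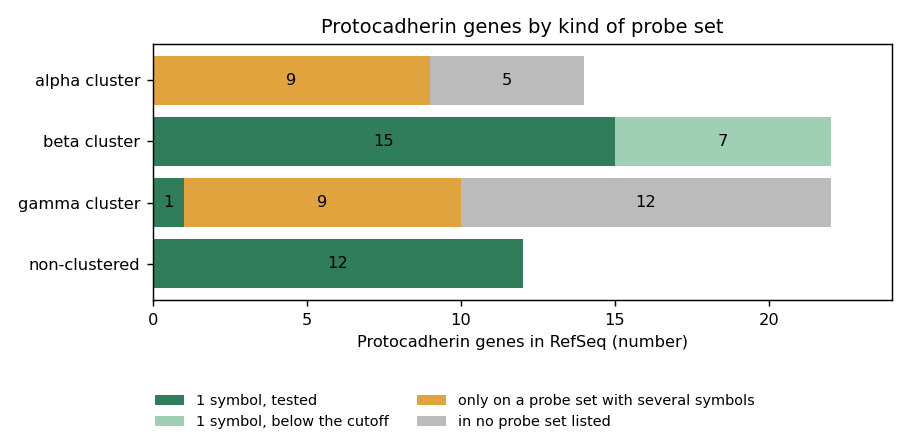
Number of RefSeq protocadherin genes in each group (horizontal axis) by the kind of probe set that reads them: a probe set with their symbol alone that was tested, one that was below the cutoff for dim probe sets, only a probe set with several symbols, or no listed probe set. The alpha cluster has 0 genes in the first 2 classes and the gamma cluster has 1, while the 22 beta and 12 non-clustered genes all have a probe set of their own.

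Promoter sequences are shown for the non-clustered genes that the results turn on. RefSeq promoter windows for assembly GRCm38.p6 were matched by symbol for 9 of the 35 members, and Pcdh1, Pcdh11x, Pcdh12 and the clustered genes had no entry. The 4 shown belong to Pcdh10, Pcdh7, Pcdh17 and Pcdh9, the members with an entry whose means differed most between the labels, and each is the 250 bases before the annotated start, 5′ to 3′ on the gene's strand, with every CCAAT box on either strand (CCAAT or ATTGG) in capitals.
Pcdh10, chr3:45378148-45378397, GRCm38.p6, plus strand: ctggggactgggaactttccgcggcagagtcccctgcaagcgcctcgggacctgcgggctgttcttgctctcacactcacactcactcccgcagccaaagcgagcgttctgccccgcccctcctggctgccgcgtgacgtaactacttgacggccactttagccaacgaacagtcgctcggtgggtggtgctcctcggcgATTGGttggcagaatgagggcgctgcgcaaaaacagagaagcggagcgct
Pcdh7, chr5:57717831-57718080, GRCm38.p6, plus strand: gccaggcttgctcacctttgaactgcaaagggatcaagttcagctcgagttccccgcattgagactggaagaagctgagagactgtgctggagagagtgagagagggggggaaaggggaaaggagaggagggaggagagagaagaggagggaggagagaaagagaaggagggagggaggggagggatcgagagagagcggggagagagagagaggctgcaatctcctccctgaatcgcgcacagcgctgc
Pcdh17, chr14:84443313-84443562, GRCm38.p6, plus strand: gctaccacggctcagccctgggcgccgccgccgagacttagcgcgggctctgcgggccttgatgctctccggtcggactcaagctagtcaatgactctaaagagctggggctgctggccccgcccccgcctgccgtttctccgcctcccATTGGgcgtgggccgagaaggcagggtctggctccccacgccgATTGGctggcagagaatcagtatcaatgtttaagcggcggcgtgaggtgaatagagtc
Pcdh9, chr14:93890670-93890919, GRCm38.p6, minus strand: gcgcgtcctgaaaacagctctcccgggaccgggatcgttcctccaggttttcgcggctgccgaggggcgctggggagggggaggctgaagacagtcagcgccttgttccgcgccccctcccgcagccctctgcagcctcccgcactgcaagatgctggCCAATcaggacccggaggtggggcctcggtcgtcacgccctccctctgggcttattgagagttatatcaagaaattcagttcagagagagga

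The Pcdh7 window held 0 CCAAT boxes, with 58.4% GC and 7 CpG pairs. Those of Pcdh10, Pcdh17 and Pcdh9 held 1, 2 and 1 boxes, 63.2%, 64.8% and 63.6% GC, and 22, 21 and 18 CpG pairs, against medians of 52.4% GC and 6 CpG pairs over the 32851 windows in the table. The 9 members with an entry had 10 windows, because Pcdh9 had a further, overlapping window. A CCAAT box was present for 8 of these 9 members, Pcdh7 being the exception. It was present in 9 of their 10 windows and in 33.8% of all windows. This motif was chosen after the sequences had been read. The letters CGCT are the core of the element through which CTCF acts on clustered protocadherin promoters. On either strand they were present for 9 of 9 members, in 10 of their 10 windows, and in 55.7% of all windows. The windows of the clustered genes themselves were not analysed here. CGCT itself contains a CpG pair. The share of CGCT or CCAAT among windows with a similar number of CpG pairs was not computed. The motifs CCAAT (or ATTGG) and CGCT (or AGCG) cannot overlap each other. A match describes the letters of a window and is not a binding site.

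No protocadherin passed the test between the labels. Of the 28 members tested, 0 had an adjusted p under 0.05 (limma, Benjamini-Hochberg over 17712 genes), as in 0% of all genes tested, and their adjusted p-values ran from 0.654 to 0.988. At an unadjusted p under 0.05 there were 3 members, Pcdhb19, Pcdh1 and Pcdh17, each with a higher mean under FMR1-KO, beside 7.53% of all genes (4% higher and 3.53% lower). Differences over 0.3 in size were found for 6 of 28 members (21.4%), beside 11.2% of all genes. A higher mean under FMR1-KO was found for 23 of 28 members, beside 46.8% of all genes, and a lower mean for 5. Of 28 members, 0 had groups that did not overlap, beside 0.965% of all genes. The median difference, always FMR1-KO minus Control on the log2 scale, was 0.15 over the 15 beta genes and 0.14 over the 12 non-clustered genes, beside -0.010 over all genes tested. Leaving out Control array 1 and FMR1-KO arrays 1 and 2, which had the lowest microglia signals, 15 of 28 members had a higher mean. The medians were then -0.012 for beta and 0.068 for non-clustered genes, beside -0.021 over all genes. Without Control arrays 2 and 3, those with Xist signal, 28 of 28 members had a higher mean. The medians were then 0.15 and 0.12, beside -0.0012 over all genes. The share of all genes with a higher mean was not computed for these fits.

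**Figure D2:**
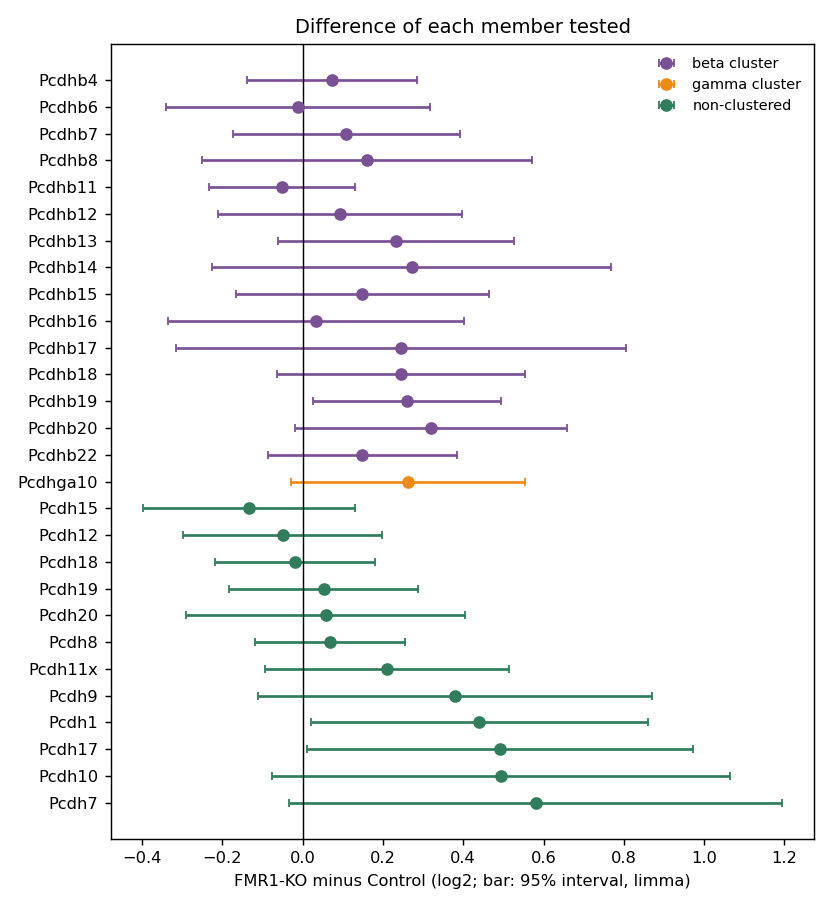
Difference between the group means of each of the 28 members tested (horizontal axis, log2, FMR1-KO minus Control, 5 arrays each), with its 95% interval from limma. Beta genes follow their order along the cluster, and non-clustered genes are sorted by difference from Pcdh15 at -0.13 to Pcdh7 at 0.58. Intervals of 25 of the 28 members include 0, and 0 members passed the adjusted threshold.

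Among the non-clustered genes, Pcdh1, Pcdh7, Pcdh9 and Pcdh11x form the delta-1 class, whose long cytoplasmic tails carry conserved motifs. Pcdh7, which binds a catalytic subunit of protein phosphatase 1 and the nuclear protein SET, read 9.12, 8.13, 8.05, 8.57 and 7.88 on Control arrays 1 to 5 and 9.46, 9.62, 8.51, 8.47 and 8.59 on FMR1-KO arrays 1 to 5. FMR1-KO arrays 1 and 2 stood above every other array, Control array 1 came next, and FMR1-KO arrays 3 to 5 lay within the range of the controls. The group means were 8.35 ± 0.50 (SD, n = 5) for Control and 8.93 ± 0.56 (SD, n = 5) for FMR1-KO, a difference of 0.58 ± 0.28 (SE), or 1.5-fold with a 95% interval of 0.976 to 2.29 (limma adjusted p = 0.656). Leaving out Control 1 and FMR1-KO 1 and 2 gave 0.37, and a fit that adds each array's microglia marker mean as a covariate gave 0.045.

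Pcdh1, a protocadherin of brain and epithelia, read 7.78, 7.44, 7.23, 7.31 and 7.25 on Control arrays 1 to 5 and 8.17, 8.45, 7.56, 7.57 and 7.45 on FMR1-KO arrays 1 to 5. All 5 FMR1-KO arrays lay above the control mean of 7.40, and Control array 1 was the only control within their range. The difference was 0.44 ± 0.19 (SE; unadjusted p = 0.0410, limma adjusted p = 0.654). Leaving out the same 3 arrays gave 0.22, and the microglia covariate gave 0.073. Pcdh9, made widely in the brain, read 8.09, 7.0, 7.18, 7.48 and 7.26 on the controls and 8.17, 8.28, 7.35, 7.54 and 7.57 on the FMR1-KO arrays. Here Control array 1 sat beside FMR1-KO arrays 1 and 2, and the other 7 arrays lay between 7.0 and 7.57. Pcdh9 differed by 0.38 ± 0.23 (SE; limma adjusted p = 0.681), by 0.55 without Control array 1 and by 0.17 without Control arrays 2 and 3. The X-linked Pcdh11x, a dimmer signal, read 5.50 to 5.91 on the controls, 6.23 on both FMR1-KO arrays 1 and 2 and 5.53 to 5.79 on the other 3, and differed by 0.21 ± 0.14 (SE; limma adjusted p = 0.700). On Control arrays 2 and 3, those with Xist signal, it read 5.72 and 5.69.

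**Figure D3:**
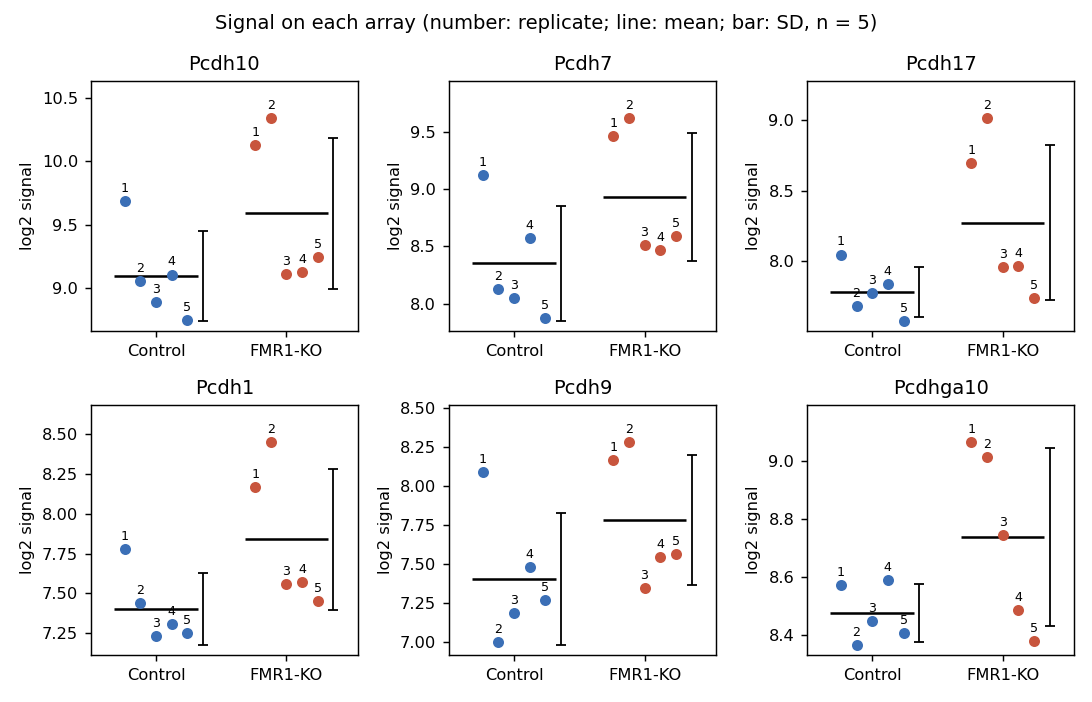
Log2 signal (vertical axis, a separate scale per panel that does not start at 0) of 5 non-clustered members and Pcdhga10 on each of 5 Control and 5 FMR1-KO arrays, numbered by replicate, with the group mean as a line and the SD as a bar. In each panel FMR1-KO arrays 1 and 2 are the highest points, and for the 5 non-clustered genes Control array 1 is the highest control.

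The delta-2 class comprises Pcdh8, Pcdh10, Pcdh17, Pcdh18 and Pcdh19. Pcdh10, which recruits the WAVE actin regulators and takes part in the removal of synapses that depends on FMRP in neurons, read 9.68, 9.05, 8.89, 9.11 and 8.75 on Control arrays 1 to 5. On FMR1-KO arrays 1 to 5 it read 10.13, 10.34, 9.11, 9.12 and 9.24. The last 3 of these lay between Control array 1 and the other controls, so the groups overlapped. The means were 9.10 ± 0.36 and 9.59 ± 0.60 (SD, n = 5 each), a difference of 0.49 ± 0.26 (SE), or 1.41-fold with an interval of 0.949 to 2.09 (limma adjusted p = 0.669). Without Control array 1 and FMR1-KO arrays 1 and 2 it was 0.21, and a fit with the microglia mean as covariate gave -0.025.

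Pcdh17, which likewise recruits WAVE actin regulators and acts in axon extension and presynaptic assembly, read 8.05, 7.68, 7.77, 7.83 and 7.57 on the controls and 8.69, 9.02, 7.95, 7.96 and 7.74 on the FMR1-KO arrays. Its spread was 0.18 (SD, n = 5) among controls and 0.55 among FMR1-KO arrays. The difference was 0.49 ± 0.22 (SE; unadjusted p = 0.0456, limma adjusted p = 0.654), 0.31 without FMR1-KO array 2, 0.17 without Control array 1 and FMR1-KO arrays 1 and 2, and 0.099 with the microglia covariate. The 3 remaining genes of this class differed little. Pcdh8, also called arcadlin, which neuronal activity induces and which draws N-cadherin into the cell, read 5.99 to 6.21 on the controls and 6.03 to 6.37 on the FMR1-KO arrays, with a difference of 0.068 ± 0.085 (SE; 95% interval -0.12 to 0.25). Pcdh18, a binding partner of the adaptor Dab1, read 5.85 to 6.25 and 5.90 to 6.09, and the interval of its difference ran from -0.22 to 0.18. Pcdh19, the X-linked gene mutated in a clustering epilepsy of females, read 5.87 to 6.15 and 5.74 to 6.28, and its interval ran from -0.18 to 0.29. On Control arrays 2 and 3 Pcdh19 read 6.11 and 5.92, inside the range of the other controls.

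Of the other 3 non-clustered genes, Pcdh12 belongs to endothelial cells, Pcdh15 forms the tip links of sensory hair cells, and Pcdh20 is a brain protocadherin. Pcdh12 read 5.63 to 6.05 on the controls and 5.52 to 6.02 on the FMR1-KO arrays, a difference of -0.049 ± 0.11 (SE; limma adjusted p = 0.930). The mean of the 9 measured endothelial markers was 6.41 to 6.82 on the controls and 6.37 to 6.49 on the FMR1-KO arrays, and whether it bears on Pcdh12 was not tested. Pcdh15 read 5.68 to 6.31 and 5.71 to 5.996, with its highest values of 6.31 and 6.21 on Control arrays 2 and 3, and differed by -0.13 ± 0.12 (SE; limma adjusted p = 0.773), or by 0.040 without those arrays. Its second, dimmer probe set read 5.06 to 5.30 on the controls and 4.99 to 5.30 on the FMR1-KO arrays and differed by -0.032. Pcdh20 read 7.27 on FMR1-KO array 2 and 6.32 to 6.80 on the other 9 arrays, so its difference of 0.057 ± 0.16 (SE) became -0.10 without that array.

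The single gamma member, Pcdhga10, read 8.57, 8.37, 8.45, 8.59 and 8.41 on Control arrays 1 to 5 and 9.07, 9.01, 8.74, 8.49 and 8.38 on FMR1-KO arrays 1 to 5. FMR1-KO arrays 1 to 3 lay above every control, while arrays 4 and 5 lay among them. The difference was 0.26 ± 0.13 (SE), or 1.20-fold with an interval of 0.980 to 1.47 (limma adjusted p = 0.664), and 0.084 without Control array 1 and FMR1-KO arrays 1 and 2. Which exon its probe set reads is not given in the sources used here, and a probe set on the constant exons would read every gamma gene together, so the assignment to Pcdhga10 is uncertain.

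Probe sets with several symbols listed 18 further genes of the clusters, while 17 were listed on no probe set. Those with several symbols are described as probe sets because a gene cannot be named from them. The probe set with 9 alpha symbols read 6.25, 6.32, 6.12, 6.27 and 6.08 on the controls and 6.34, 6.03, 6.34, 6.25 and 6.27 on the FMR1-KO arrays. Here FMR1-KO array 2 was the lowest of all 10 arrays, unlike for most members. The difference was 0.039 ± 0.077 (SE; 95% interval -0.13 to 0.21; limma over 33793 probe sets, adjusted p = 0.948). The probe set with 9 gamma symbols read 6.17, 6.39, 6.67, 6.12 and 5.96 on the controls and 6.78, 7.22, 6.26, 6.06 and 6.44 on the FMR1-KO arrays. Its 2 highest arrays were again FMR1-KO arrays 1 and 2, and it differed by 0.29 ± 0.21 (SE; adjusted p = 0.823), or by -0.027 without Control array 1 and FMR1-KO arrays 1 and 2. Another lists Pcdhga10 beside a predicted gene and is therefore assigned to neither, and it read 9.96, 9.70, 9.93, 10.06 and 9.70 on the controls and 9.90, 10.11, 9.60, 9.52 and 9.19 on the FMR1-KO arrays. FMR1-KO arrays 3 to 5 were its 3 lowest, and it differed by -0.21 ± 0.16 (SE; adjusted p = 0.828), the opposite sign to the probe set that lists Pcdhga10 alone. This difference was -0.41 without Control array 1 and FMR1-KO arrays 1 and 2 (limma unadjusted p = 0.0141, limma adjusted p = 0.502), -0.41 in the fit with the microglia covariate, -0.32 without FMR1-KO array 2 and -0.089 without FMR1-KO array 5. The last lists Pcdh10 beside another gene and is likewise assigned to neither. It differed by 0.16 ± 0.17 (SE; adjusted p = 0.882), beside 0.49 for the probe set that lists Pcdh10 alone. Without Control array 1 and FMR1-KO arrays 1 and 2 these values were -0.067 and 0.21. Of these 4 probe sets 0 passed the threshold, as in 0% of all probe sets, and 0 had an unadjusted limma p under 0.05, beside 6.43% of all probe sets.

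The beta cluster is the part of the clustered family that the platform reads gene by gene. Its 22 genes are close relatives, so some probes may read more than 1 of them, and neighbouring values are not independent. The 7 genes below the cutoff, Pcdhb1, Pcdhb2, Pcdhb3, Pcdhb5, Pcdhb9, Pcdhb10 and Pcdhb21, had overall means of 4.60 to 5.26 and differences of -0.11 to 0.19. Pcdhb3 among them read 5.79 and 5.47 on FMR1-KO arrays 1 and 2 and 5.06 to 5.28 on the other 8 arrays. A fit without the filter gave an adjusted p of 0.727 or higher for the 35 members, of which 27 had a higher mean, beside 46.1% of all genes in that fit, and 2 an unadjusted p under 0.05, beside 6.77%.

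Pcdhb19 had the smallest p of all members. It read 5.71, 5.78, 5.53, 5.62 and 5.35 on the controls and 5.99, 6.01, 5.91, 5.61 and 5.76 on the FMR1-KO arrays. All 5 FMR1-KO arrays were above the control mean of 5.60, and arrays 1 to 3 above every control. The difference was 0.26 ± 0.11 (SE; unadjusted p = 0.0328, limma adjusted p = 0.654), and 0.19 without Control array 1 and FMR1-KO arrays 1 and 2. Its neighbour Pcdhb20 read 6.43, 6.24, 6.30, 6.31 and 6.12 on the controls and 6.87, 6.96, 6.04, 6.44 and 6.68 on the FMR1-KO arrays. FMR1-KO array 3 was the lowest of the 10 and arrays 1 and 2 the highest, and the difference was 0.32 ± 0.16 (SE; limma adjusted p = 0.657). Leaving out Control array 1 and FMR1-KO arrays 1 and 2 gave 0.14, against 0.083 with the microglia covariate and 0.18 with array weights.

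Among the beta genes tested, Pcdhb14 had the widest spread within a group, an SD of 0.57 under FMR1-KO. Its FMR1-KO arrays 1 to 5 read 6.92, 7.24, 6.24, 6.22 and 5.85 and the controls 5.92 to 6.38. Its difference of 0.27 ± 0.23 (SE; limma adjusted p = 0.757) became 0.084 without FMR1-KO array 2 and -0.089 without Control array 1 and FMR1-KO arrays 1 and 2. Pcdhb17 read 6.60, 5.95, 5.82, 6.48 and 5.70 on the controls and 7.06, 6.84, 6.01, 5.85 and 6.02 on the FMR1-KO arrays, so Control arrays 1 and 4 lay above 3 FMR1-KO arrays. Its difference of 0.24 ± 0.26 (SE; limma adjusted p = 0.817) became 0.068 without FMR1-KO array 1 and -0.029 without the 3 arrays named above. Pcdhb18 differed by 0.24 ± 0.14 (SE), with its highest value of 6.10 on FMR1-KO array 2 and the other 9 arrays at 5.18 to 5.61, and by 0.11 without that array. Pcdhb13 differed by 0.23 ± 0.13 (SE), with 6.22 on FMR1-KO array 2, 5.77 to 5.82 on the other FMR1-KO arrays and 5.27 to 5.91 on the controls, and by 0.15 without FMR1-KO array 2. Without Control array 1 and FMR1-KO arrays 1 and 2 these differences were 0.070 for Pcdhb18 and 0.21 for Pcdhb13. Pcdhb6 read 5.87 to 6.48 on the controls and 5.90 to 6.68 on the FMR1-KO arrays, and the interval of its difference ran from -0.34 to 0.32. The other 8 beta genes tested differed by -0.051 (Pcdhb11) to 0.16 (Pcdhb8), with an adjusted p of 0.723 or higher.

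**Figure D4:**
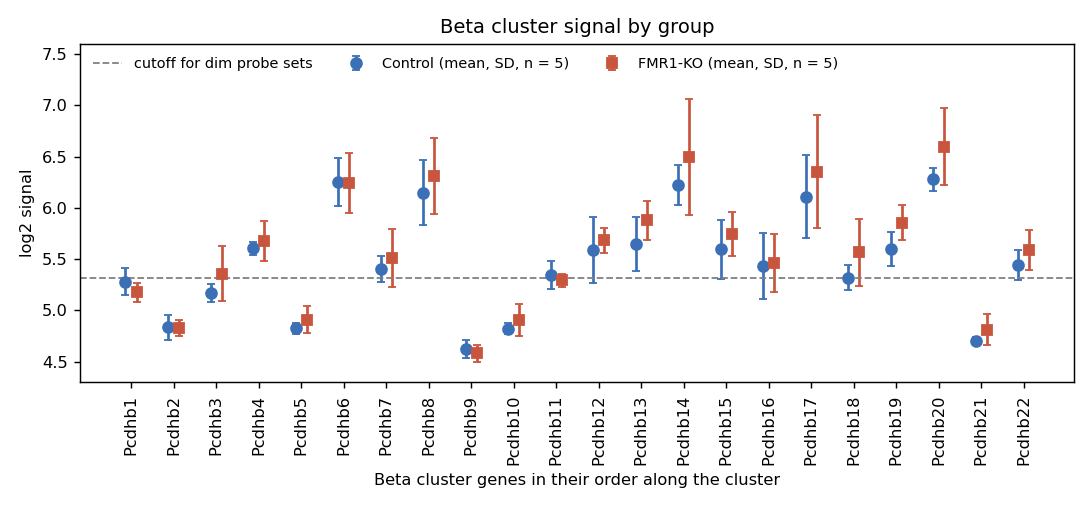
Mean log2 signal (vertical axis, not starting at 0) of the 22 beta genes in their order along the cluster, for 5 Control and 5 FMR1-KO arrays, with SD bars and the cutoff of 5.316 for dim probe sets as a dashed line. Each probe set has its own sensitivity, so heights of different genes are not to be set against one another. From Pcdhb13 on, the FMR1-KO mean lies above the Control mean for each gene, with bars that overlap.

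Along the cluster, the 10 genes from Pcdhb13 to Pcdhb22 each had a higher mean under FMR1-KO, with differences of 0.033 to 0.32 and a median of 0.24. Of the 12 genes from Pcdhb1 to Pcdhb12, 7 had a higher mean, with differences of -0.11 to 0.19 and a median of 0.078. This division was chosen after the values were seen and was not tested, and 9 of the 10 and 6 of the 12 genes reached the cutoff.

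The same few arrays were high for most members. FMR1-KO array 1 or 2 held the highest value for 21 of the 28 members (75.0%), beside 29.2% of all genes tested. Control array 1 and FMR1-KO arrays 1 and 2 held the 3 highest values for 10 members (35.7%), beside 10.0% of all genes. Those 10 were Pcdh1, Pcdh7, Pcdh9, Pcdh10, Pcdh11x, Pcdh17, Pcdh19, Pcdhb4, Pcdhb15 and Pcdhb17. The same 3 arrays were the highest for 20 of the 20 astrocyte markers and for 11 of the 34 other genes of the cadherin superfamily that were measured. They were also lowest in the microglia markers. In a fit that held the microglia mean as covariate, the fitted difference, FMR1-KO minus Control, was above 0 for 10 of 28 members. The median of these fitted differences was -0.060 for beta and -0.027 for non-clustered genes, beside -0.0053 over all genes, and 0 members passed. The share of all genes above 0 in that fit was not computed. The microglia mean itself was 10.47 over the controls and 9.91 over the FMR1-KO arrays. That fit therefore cannot separate the label from the cell mixture. The part of the cell mixture in the differences between the labels was not tested. Members with their highest value elsewhere were Pcdh8 on FMR1-KO array 3, Pcdh12 and Pcdhb11 on Control array 3, Pcdh15, Pcdh18 and Pcdhb12 on Control array 2, and Pcdhb15 on Control array 1.

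**Figure D5:**
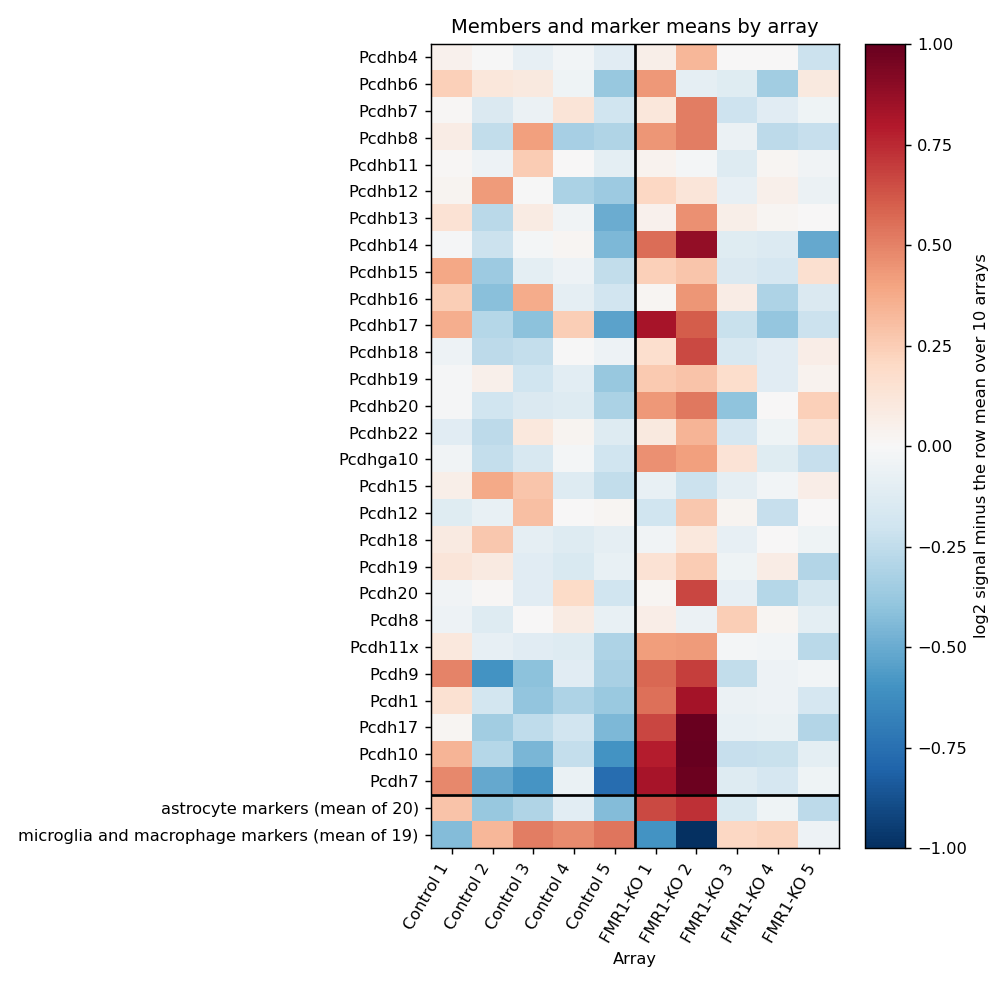
Log2 signal of each of the 28 members tested, minus its mean over the 10 arrays (colour, red above and blue below, scale ending at -1 and 1), with the means of 20 astrocyte markers and 19 microglia and macrophage markers in the last 2 rows. Columns are the 5 Control and 5 FMR1-KO arrays. The columns of FMR1-KO arrays 1 and 2 are red for most members and for the astrocyte markers and blue for the microglia markers, and Pcdh15 is blue in both.

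Genes that act with protocadherins gave a mixed picture. Of 16 regulators of the clusters, 15 were measured. The FMR1-KO mean was higher for 4 and lower for 11, with 0 past the threshold and 0 at an unadjusted p under 0.05, and the median was -0.070. CTCF itself, encoded by Ctcf, differed by -0.071 ± 0.089 (SE), and the silencer Smchd1 by -0.055 ± 0.13. The smallest p-values in this list belonged to the repressor Rest at -0.20 ± 0.10 (SE), the cohesin subunits Smc3 at 0.15 ± 0.080 and Rad21 at -0.14 ± 0.091, and the corepressor Trim28 at -0.23 ± 0.13. Of 29 genes for partners and processing enzymes, 26 were measured. Their means were higher for 13 and lower for 13, with 0 past the threshold, 3 higher and 4 lower at an unadjusted p under 0.05 (4% and 3.53% of all genes), and a median of -0.0018.

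In the partner list the adhesion molecule Ncam1 read 10.89 to 11.29 on the controls and 11.33 to 12.17 on the FMR1-KO arrays, and differed by 0.58 ± 0.16 (SE; limma adjusted p = 0.654). It was the only 1 of the 26 partners measured whose groups did not overlap, beside 0.965% of all genes. Ncam1 read 11.90 and 12.17 on FMR1-KO arrays 1 and 2 and 11.33 to 11.42 on FMR1-KO arrays 3 to 5. Its highest control was Control array 1. The small GTPase gene Rhoa differed by -0.32 ± 0.10 (SE), the membrane protease Adam10, which sheds gamma protocadherins, by -0.44 ± 0.17, and the adaptor Dab1 by 0.58 ± 0.23. Of the WAVE complex genes measured, Nckap1 differed by 0.45 ± 0.22 (SE), Wasf3 by 0.53 ± 0.23 and Wasf2 by -0.50 ± 0.22, and Wasf1, Cyfip2, Abi1, Abi2 and Brk1 by -0.17 to 0.22. Dab1, Nckap1 and Wasf3 were highest, and Adam10 and Wasf2 lowest, on Control array 1 and FMR1-KO arrays 1 and 2. These arrays were high in astrocyte and low in microglia markers. Their part in these differences and in that of Ncam1 was not tested. Of 49 other genes of the cadherin superfamily, 34 were measured. Means were higher for 23 and lower for 11, with 0 past the threshold, 5 higher and 0 lower at an unadjusted p under 0.05 (4% and 3.53% of all genes), and a median of 0.048. Their smallest p-values belonged to the giant cadherins Fat3 at 0.38 ± 0.12 (SE) and Fat4 at 0.43 ± 0.17, the planar polarity gene Celsr2 at 0.48 ± 0.16, and Cdhr3 at 0.66 ± 0.25, each with a limma adjusted p of 0.654. Celsr2, Cdhr3 and Fat4 also had their highest values on FMR1-KO arrays 1 and 2. The partner and superfamily lists share Cdh2 and Cdh11, and N-cadherin, encoded by Cdh2, differed by 0.42 ± 0.26 (SE; limma adjusted p = 0.695).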

How the data were processed

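The authors deposited 1 table of log2 signals for 33793 probe sets on 10 Affymetrix arrays, 5 per label. The series' design text names GeneSpring for the comparison of the labels, and the sources used here do not state how background, normalization and summary were handled. The values were used without further scaling. Probe sets were named from the platform annotation: 23521 had 1 gene symbol, 1814 several and 8458 none. For each of 22180 genes the brightest single-symbol probe set was kept, and 17712 with a mean of at least the 25th percentile were tested. FMR1-KO was compared with Control by limma 3.58.1 (R 4.3.3; lmFit and eBayes, no covariate) with Benjamini-Hochberg adjustment over all genes tested, and probe sets with several symbols in a fit over all probe sets. The procedure was tested on simulated data with 50 genes changed per fold size among those genes, where it called 35 at 1.5-fold and 43 at 2-fold. It also called 9 of 17512 unchanged genes. The simulated noise was drawn independently for each gene, without the shifts that many genes share on an array. The counts therefore do not give the share of changed protocadherins that would be found in these arrays. The named members were the 12 non-clustered genes, the gamma gene, and the 4 brightest and 4 smallest-p beta genes. Members and lists were chosen with earlier results of these data known. Alternatives covered normalization, filter, probe sets, array weights, a replicate block, a marker covariate and arrays left out. Arrays correlated at 0.903 to 0.990.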

Additional observations from a re-analysis of the deposited data

Results flagged for a closer look

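Of 80 groups of 5 arrays checked for a value standing apart from the rest of its group, 3 held one, where chance alone gives about 1 in 20. Pcdhb13 read 6.22 on FMR1-KO array 2, while the other 4 FMR1-KO arrays read 5.77 to 5.82. The probe set that lists Pcdh10 beside another gene read 6.16 on Control array 2, while the other 4 controls read 5.63 to 5.77. Averaged over the microglia and macrophage list, the signal of Control array 1 was 9.75, below the 10.52 to 10.73 of the other 4 controls.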

How the results depend on the processing

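Under each of the 22 alternatives 0 protocadherins passed the adjusted threshold in limma, and the lowest adjusted p of a named member was 0.248, for Pcdh7 without Control array 1. Of all genes, 1 passed without Control array 1 and FMR1-KO arrays 1 and 2, and 0 to 1 when single arrays were left out (1 without Control array 5). Of the 20 named members, 11 took the other sign in at least 1 alternative, and the cause was not tested. Array weights gave 0.023 for Pcdh18 and -0.083 for Pcdh20. Without Control arrays 2 and 3, Pcdh12 was 0.0091, Pcdh15 0.040, Pcdh18 0.033 and Pcdhb6 0.056. Without Control array 1 and FMR1-KO arrays 1 and 2, Pcdh19 was -0.024, Pcdh20 -0.15, Pcdhb14 -0.089 and Pcdhb17 -0.029. The probe set with 9 gamma symbols was then -0.027 and the one listing Pcdh10 beside another gene -0.067. The microglia covariate gave -0.025 for Pcdh10, -0.0058 for Pcdh11x, -0.074 for Pcdh19, -0.17 for Pcdh20, -0.030 for Pcdh9, -0.083 for Pcdhb14, -0.18 for Pcdhb17, -0.035 for that last probe set and -0.060 for the beta median. Leaving out 1 array at a time gave -0.12 to 0.019 for Pcdh12, -0.053 to 0.044 for Pcdh18, -0.0036 to 0.13 for Pcdh19, -0.10 to 0.14 for Pcdh20 and -0.12 to 0.073 for Pcdhb6. A filter at the 50th percentile kept 6 non-clustered genes with a median of 0.47. No median could be given for the alpha cluster. Whether same-numbered arrays were prepared together is not given by the labels. Deviations of same-numbered arrays correlated at -0.015 to 0.53, which cannot decide it because array-wide shifts also enter these correlations. With the replicate block, 0 members and 0 genes passed, and 6 members and 2080 genes, against 3 and 1334, had an unadjusted p under 0.05. That count of members was 6 without Control array 1, 1 without Control array 2 or 4, 0 without Control array 3 or 5 or FMR1-KO array 1 or 2, and 5, 6 and 5 without FMR1-KO arrays 3, 4 and 5. The counts of all genes in these single-array fits are not given here. The counts of members are therefore not read as a result about protocadherins. Below the filter lay 7 of the 22 beta genes and no other member, while 17712 of all 22180 genes reached it. The filter is a rank among probe sets and does not measure background.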
